A study of Mus musculus with 6 samples.

Results

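The genes described here encode the proteins of the cytosolic ribosome. They were taken by symbol: a protein-coding gene whose name follows the pattern of a large-subunit (Rpl, Rplp) or small-subunit (Rps, Rpsa) protein, with at least 100 reads summed over the 6 libraries. Of 54838 genes counted, 83 fitted the name and 80 also had the reads, 48 of the large and 32 of the small subunit. The other 3, Rpl10l, Rpl3l and Rpl39l, are paralogs of standard members and had 0 reads in every library, while the member nearest the limit, Rps29, had 132. All 80 members passed the filter on low counts, alongside 13521 other genes.

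RNA was sequenced from B16F10, an established pigmented mouse melanoma cell line, after culture with GSK126 at 10 µM (3 libraries) or with the vehicle DMSO (3 libraries). GSK126 inhibits EZH2, the enzyme of Polycomb repressive complex 2 that methylates lysine 27 of histone H3. Both groups are the same parental line, with no engineered allele named, and the length of treatment was not given in the sources used here. Whether replicates came from separate cultures is not in the labels, so each p-value reflects only how these libraries scatter, which can be technical scatter.

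A ribosome is built from ribosomal RNA made by RNA polymerase I and III and from one copy of most of these proteins, so their mRNAs are normally made in near-balanced amounts. They belong to the most abundant mRNAs of a growing cell. Most carry a run of pyrimidines at the very start of the message, the terminal oligopyrimidine (TOP) motif, through which mTORC1 and LARP1 govern their translation and stability. Their genes have also been copied back into the mammalian genome many times as intronless pseudogenes, which makes their short messages hard to place by sequence.

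The library totals lay between 14250457 and 14713373 reads with GSK126 and between 13594939 and 14072673 with DMSO. The labelled cell type was checked against marker genes. The 7 melanocyte genes summed to between 22800 and 23800 CPM (counts scaled to 1000000 reads of the library) with GSK126 and between 21200 and 22600 with DMSO. Those of leukocytes, endothelium and keratinocytes summed to at most 1.73, 0.702 and 0.142 CPM in any library, with Adgre1, Cd3e, Cdh5, Kdr, Tek, Krt5, Krt1 and Krt10 at 0 reads. The 6 fibroblast genes, all with some reads, summed to between 17.0 and 22.5 CPM with GSK126 and between 23.2 and 26.3 CPM with DMSO. The melanocyte sums were higher and the fibroblast sums lower in every GSK126 library than in any DMSO library, and their part in the results was not tested. Single markers differed in direction. Of the 7 melanocyte genes 3 had a log2 fold change (GSK126 over DMSO) below 0: Mlana at -0.28, Tyrp1 at -0.08 and Tyr at -0.00. The fibroblast sum was mostly Col1a2, with 1643 reads (-0.36), while Pdgfra, with 99 reads, stood at 0.66 (standard error 0.37). GSK126 replicate 3 stood apart from the other libraries of its group, as described further on, and values without it are given beside the results it moved most.

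Copies of these genes bear on what a count means, as 3 pairs of coding sequences show. The heaviest copy of Rps6, the protein phosphorylated by S6 kinase, is the pseudogene Rps6-ps4, which matched all 750 of 750 coding bases of Rps6 with 0 differences. The first 90 coding bases, on the coding strand of the GENCODE M21 transcripts (GRCm38; Rps6 at chr4:86854660-86857412, Rps6-ps4 at chr2:75191073-75191822), read as follows, with any differing base in capitals.
Rps6: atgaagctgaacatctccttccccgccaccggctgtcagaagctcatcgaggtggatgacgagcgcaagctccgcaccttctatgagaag
Rps6-ps4: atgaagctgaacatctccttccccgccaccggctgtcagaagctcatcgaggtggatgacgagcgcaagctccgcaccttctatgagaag
There is no capital in either line, so the bases of this stretch of the message do not tell gene from copy. Rps6 itself held 1105 reads over the 6 libraries and Rps6-ps4 held 56043.

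Rpl10a, the protein of the L1 stalk and the member with the smallest p below, has a similar partner. Its copy Rpl10a-ps1 aligned to 648 of the 651 coding bases with 0 differences. Coding bases 4 to 93 of Rpl10a (chr17:28328471-28331033) and the matching stretch of Rpl10a-ps1 (chr1:64993951-64994604) are shown in the same way.
Rpl10a: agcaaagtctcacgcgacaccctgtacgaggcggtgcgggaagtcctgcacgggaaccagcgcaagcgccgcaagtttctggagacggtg
Rpl10a-ps1: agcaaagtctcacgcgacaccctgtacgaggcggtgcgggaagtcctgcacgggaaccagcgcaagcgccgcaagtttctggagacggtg
Rpl10a held 15424 reads and its copy 16814. The same comparison found 0 differences over 894 of 894 coding bases between Rpl5 and Gm15500, and over 255 of 255 between Rps27 and the retrogene Rps27rt.

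Rpl4, which lines the exit tunnel for the new peptide, is a contrast. Its copy Gm5835 differs from it at 34 of 1257 aligned coding bases, and coding bases 509 to 598 (Rpl4 at chr9:64173375-64178666, Gm5835 at chr1:143093347-143094616) hold 6 of those differences.
Rpl4: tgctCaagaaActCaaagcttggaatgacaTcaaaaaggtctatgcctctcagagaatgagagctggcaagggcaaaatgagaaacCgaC
Gm5835: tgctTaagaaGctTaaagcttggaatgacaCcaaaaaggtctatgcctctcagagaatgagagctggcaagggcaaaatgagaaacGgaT
Rpl4 held 97571 reads and Gm5835 only 4658.

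Over all members, 1446049 reads were counted on the genes themselves and 1357690 on their copies, that is on 1072 annotated pseudogenes and retrogenes matched to a member by sequence (at least 90% identity over at least 50% of the copy). Of those copies, 739 had reads. For 42 members, 29 of the large and 13 of the small subunit, the copies held more reads than the gene, and 20 members held under 10% as many reads as their copies. At the other end, 5 members had under 1% of the reads of gene and copies together on copies. Rpl8, a core protein of the large subunit next to the peptidyl transferase centre, had 77341 reads of its own and 0 on its copy.

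For each member the copy with the most reads, its heaviest copy, was compared with the gene in sequence. In 36 members the heaviest copy held more reads than the gene. In 34 of those it was at least 99% identical to the message over the aligned bases, in 12 of them 100%. Of the other 42 members with a copy that had reads, the heaviest copy was so close in 19. The median ratio of reads on the heaviest copy to reads on the gene was 2.21 for the 53 members whose heaviest copy had at least 99% identity. It was 0.0966 for the 25 members whose heaviest copy was less alike. Copies with fewer reads were not compared in this way, and some may be closer in sequence. Counting of reads that fit several places is not described in the sources used here, so reads placed on a copy cannot be told apart from reads of the member.

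The members with the most reads on copies relative to their own were Rpl23a, with 241 own reads against 43469, Rps23 with 378 against 33166, Rps27 with 155 against 13052, Rps6 with 1105 against 70865 and Rps13 with 245 against 15526. In the plot of own and copy reads these genes lie far below the line of equal reads. Rps23 shapes the decoding centre, Rpl23a is a docking protein at the exit tunnel, and all 5 are standard ribosomal proteins.

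**Figure D1:**
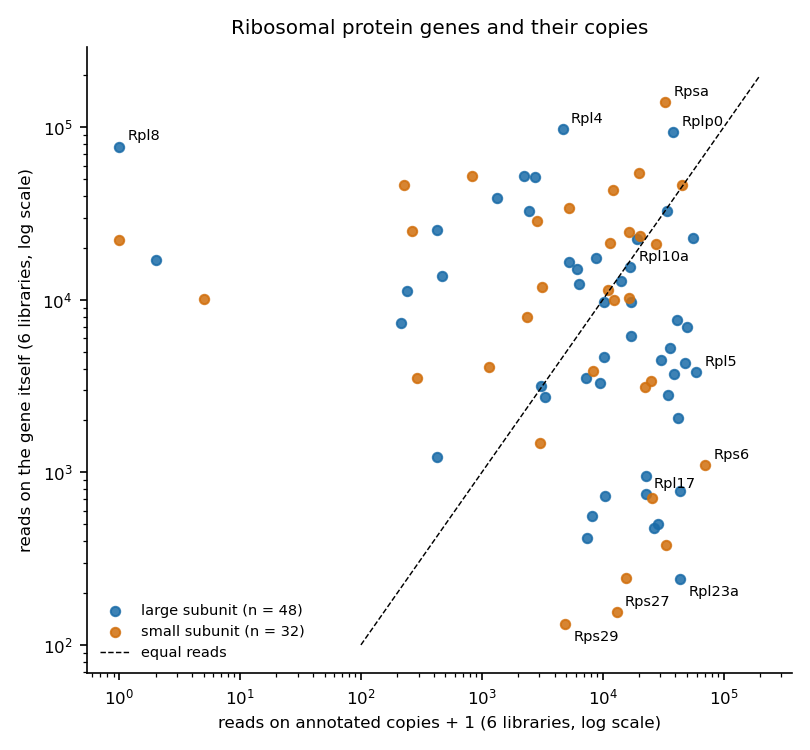
Reads counted on each ribosomal protein gene (vertical axis) against reads counted on its annotated copies plus 1 (horizontal axis), summed over 6 libraries, on log scales, with each point a gene and colour giving the subunit. The 42 genes with more reads on copies lie below and to the right of the dashed line of equal reads.

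Levels of the members differed with and without the reads of their copies. CPM per kilobase of transcript, a scale on which genes can be compared, ran from 4.03 for Rps29, a zinc-binding protein of the small-subunit head, to 1240 for Rplp1, an acidic protein of the P stalk, a span of 307-fold. With the reads of copies added, the span was 39.1-fold, from 33.0 to 1290, and the median level moved to 444, against 122 for own reads. The 33.0 was that of Rps20, for which the longest transcript of any member was used (3706 bases). That low end, and the span with it, therefore rests on the choice of transcript. Rps6 stood at 14.9 on its own reads and at 971 with copies, and Rpl23a at 5.10 and 925. The highest levels on own reads were those of Rplp1 (1240), Rpl8 (1080) and Rpl32 (892) in the large subunit and of Rps15 (1240), Rpsa (1040) and Rps14 (678) in the small subunit. Neighbours in that order differ by less than their library-to-library spread in places, as with Rplp1 and Rps15. A median of 55.5% of the 50-base words of a member's transcript also occurred in a transcript of another gene, up to 98.6% for Rps27, and 48 members exceeded 50%. Across the 80 members that share had a Spearman correlation of -0.286 with the level per kilobase on own reads and of 0.218 with copies added, as a description of genes counted in the same libraries.

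With GSK126, few ribosomal protein mRNAs passed the test, but most had slightly lower values than with DMSO. Of 80 members, 2 were called lower and 0 higher (quasi-likelihood test of edgeR, adjusted p below 0.05 by Benjamini-Hochberg over 13601 genes), where 5.18% of all tested genes were called lower and 5.87% higher. The log2 fold change was below 0 in 73 of 80 members, against 50.1% of all tested genes, and its median was -0.18 for the members and -0.00 for all genes. At an unadjusted p under 0.05 there were 16 of 80 members, against 3735 of 13601 tested genes. All 3 GSK126 libraries lay below all 3 DMSO libraries in 29 members (16.8% of all tested genes) and above them in 2 (17.6%), and the groups overlapped in 49. In bulk RNA of this kind, fewer cells of a type and less RNA per cell cannot be told apart, and a CPM value is a share of the library and not an amount per cell.

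Both subunits had similar medians. In the large subunit 2 of 48 members were called lower, 45 had a log2 fold change below 0 and the median was -0.19. In the small subunit 0 of 32 were called, 28 lay below 0 and the median was -0.18. An unadjusted p under 0.05 was seen in 4 of these 32 members and in 12 of the 48 large-subunit members. Among all tested genes it was seen in 3735 of 13601. The standard deviation of the log2 fold change over members was 0.14 in the large and 0.15 in the small subunit. Non-overlapping lower groups were seen in 21 of 48 large-subunit and 8 of 32 small-subunit members, against 16.8% of all tested genes, and the subunits were not tested against each other. Summed reads of the large subunit divided by those of the small subunit gave 1.15, 1.14 and 1.15 with GSK126 and 1.18, 1.20 and 1.17 with DMSO. That ratio was lower in each GSK126 library than in any DMSO library, and this difference was not tested. A ratio of sums weighs genes by their reads. Rpsa, with the most reads of the small subunit, had 1710, 1680 and 1740 CPM with GSK126 and 1600, 1580 and 1660 CPM with DMSO. The part of this 1 gene in the lower ratio was not tested, so the ratio does not describe the subunits gene by gene.

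**Figure D2:**
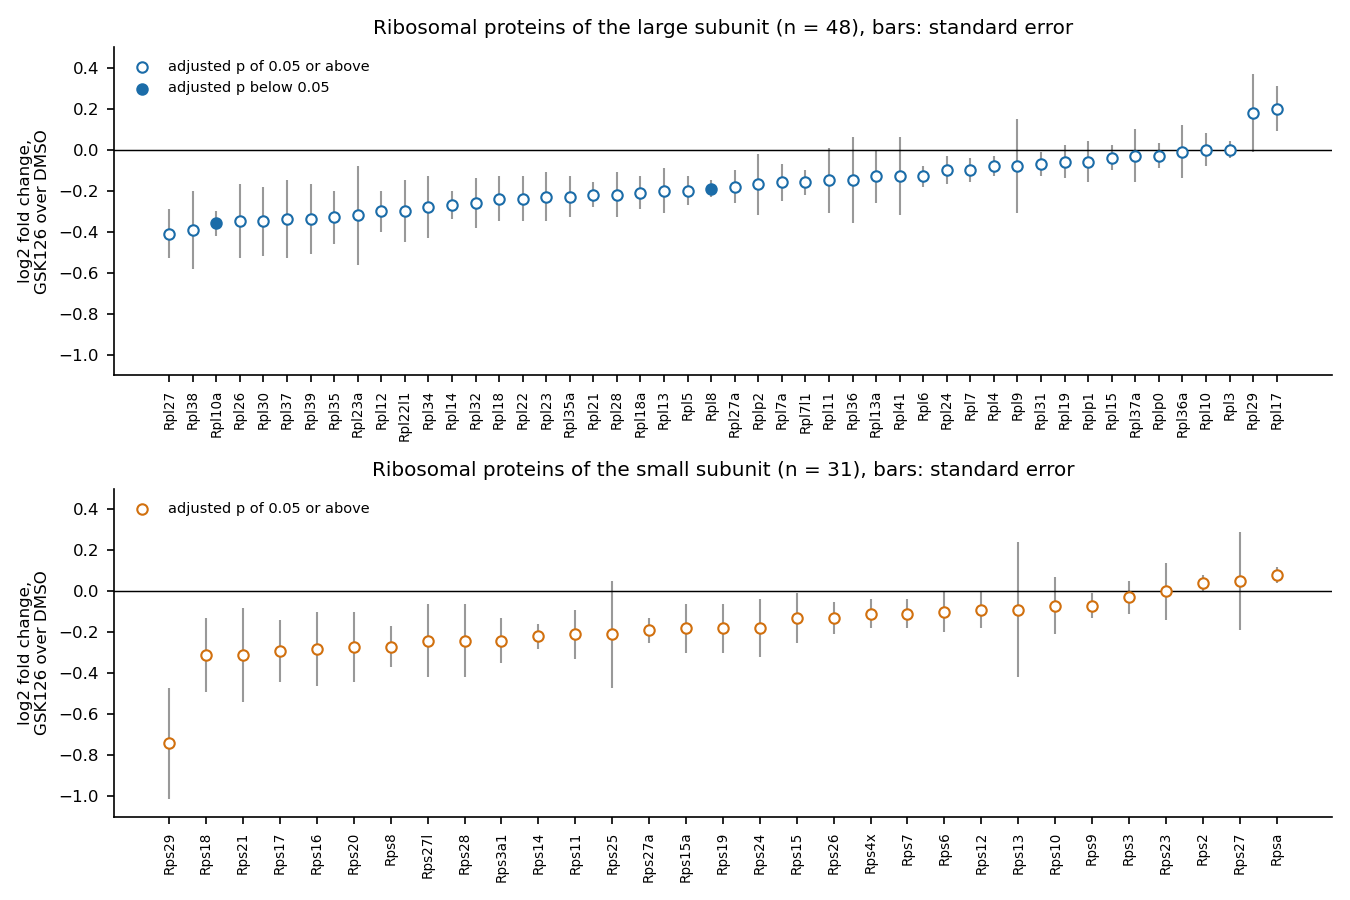
The log2 fold change of each ribosomal protein gene, GSK126 over DMSO, with its standard error, ordered by value within the large (top) and small (bottom) subunit. Filled points passed the test; the 2 filled points are Rpl10a and Rpl8, and 72 of the 79 genes drawn lie below 0.

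The members' share of all reads was 1.75%, 1.71% and 1.46% with GSK126 and 1.76%, 1.77% and 1.81% with DMSO, or 1.64% ± 0.157 and 1.78% ± 0.0265 (SD, n = 3 each). The third GSK126 library was the lowest of the 6, and the other two were close to the DMSO values. Without GSK126 replicate 3 the difference in share shrank to -0.0463 percentage points, against -0.137 with it. The copies took 1.63%, 1.62% and 1.29% of the reads with GSK126 and 1.68%, 1.68% and 1.74% with DMSO, again lowest in GSK126 replicate 3.

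GSK126 replicate 3 had the lowest member values of its group. Relative to the mean of the other 2 libraries of its group, GSK126 replicate 3 had a median member deviation of -0.22 on the log2 scale, with 67 of 80 members below 0, against 0.13 and 0.10 for GSK126 replicates 1 and 2 and between -0.03 and 0.04 for the DMSO libraries. It was -0.17 for the large and -0.31 for the small subunit. With that library left out, 64 of 80 members still had a log2 fold change below 0 (50% of all tested genes did), the median was -0.08, and it was -0.12 in the large and -0.06 in the small subunit. Rpl8 and Rpl10a were again the only calls, both lower, where 4.37% of all genes were called lower and 4.64% higher. GSK126 replicates 1 and 2 lay below all DMSO libraries in 31 members, where 22% of all tested genes did so, and above them in 4, where 22.9% did so.

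**Figure D3:**
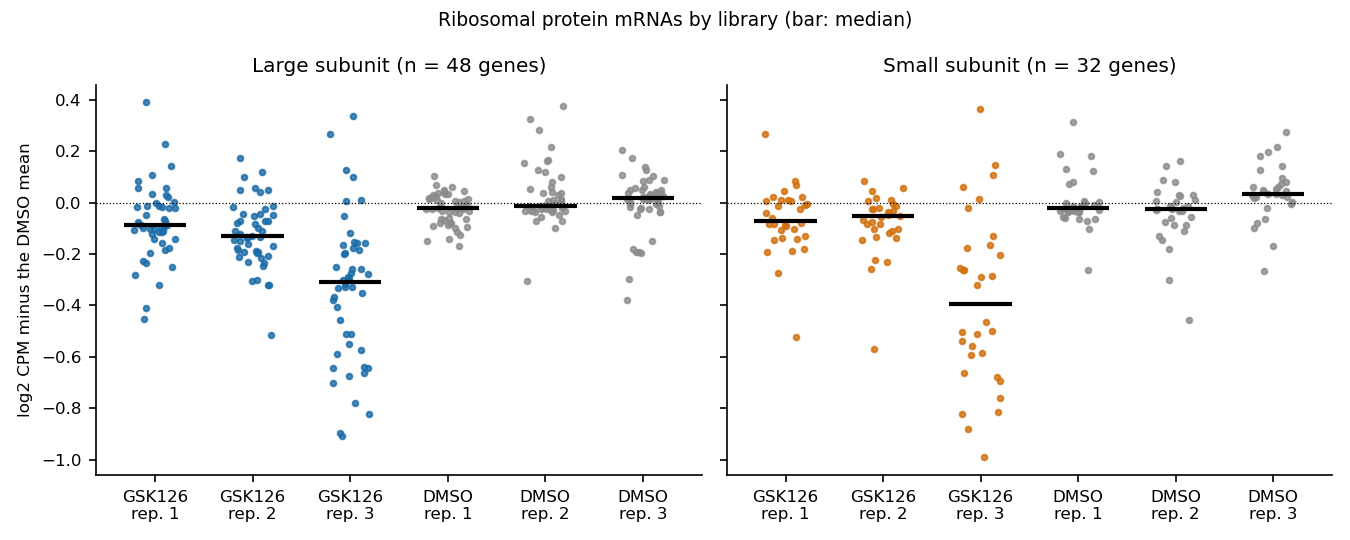
Each point is a ribosomal protein gene, plotted as log2 CPM minus the mean of the DMSO libraries, by library, with black bars at the medians for the large (left) and small (right) subunit. The medians of GSK126 replicate 3 are -0.31 and -0.39, while those of GSK126 replicates 1 and 2 lie between -0.13 and -0.05.

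Short messages as a whole were lower in GSK126 replicate 3. Among other protein-coding genes of at least 5 CPM, its median deviation from its group was -0.35 for the 126 with transcripts under 600 bases and -0.19 for the 518 between 600 and 1000. It was -0.07 between 1000 and 2000 bases, 0.01 between 2000 and 4000 and 0.09 above. The members followed the same order, with -0.47 for the 30 under 600 bases, -0.20 for the 32 between 600 and 1000 and -0.13 for the 16 between 1000 and 2000. The part of message length in the members' lower values was not tested. With all libraries, the median log2 fold change under 600 bases was -0.22 for the members and -0.11 for the other genes, so that short genes of other kinds also lay below the median of -0.00 for all genes. From 600 to 1000 bases it was -0.17 for the members and -0.07 for the others, and from 1000 to 2000 it was -0.15 and -0.03. With GSK126 replicate 3 left out, the members had -0.09 under 600 bases and -0.08 from 600 to 1000, where the others had 0.01 and 0.00.

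**Figure D4:**
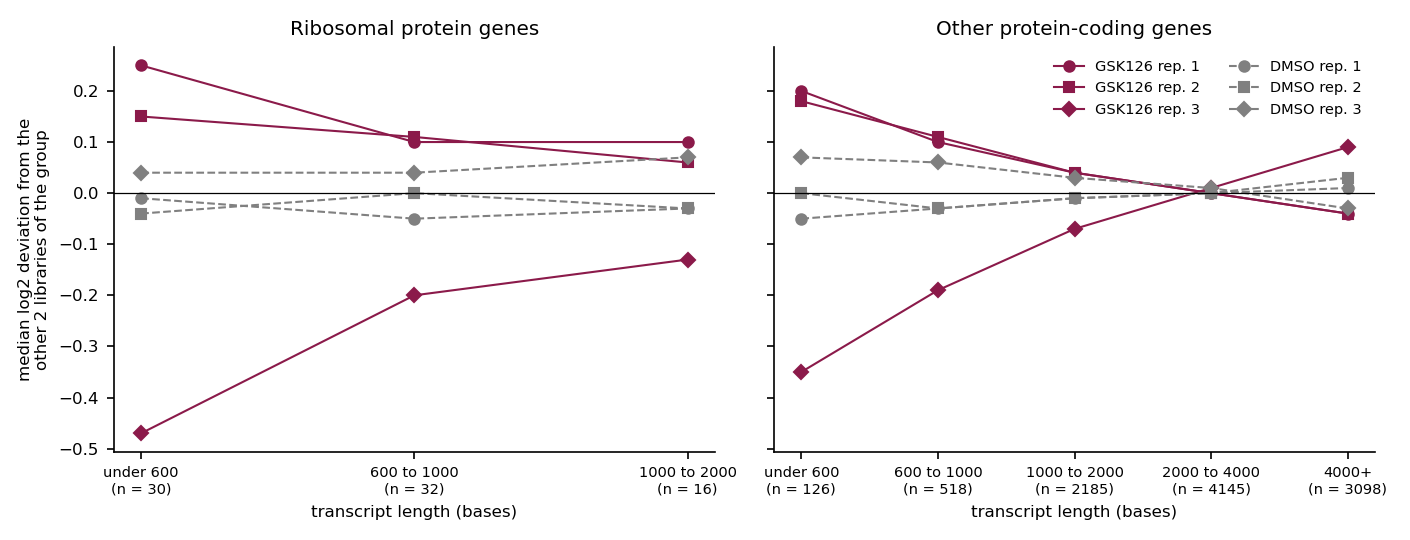
Median log2 deviation of each library from the other 2 libraries of its group, by transcript length, for ribosomal protein genes (left) and other protein-coding genes of at least 5 CPM (right). The line of GSK126 replicate 3 lies lowest at short lengths in both panels, at -0.47 and -0.35 below 600 bases, and the 2 members of 2000 to 4000 bases are not drawn.

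Rpl10a had 150, 175 and 155 CPM with GSK126 and 207, 207 and 203 CPM with DMSO. Every GSK126 value was below every DMSO value, and the log2 fold change was -0.36 (standard error, SE, 0.06, edgeR adjusted p = 0.0145). Its copy Rpl10a-ps1 had 2937, 3063 and 2280 reads with GSK126 and 2799, 2877 and 2858 with DMSO, a log2 fold change of -0.12 (SE 0.10), with overlapping groups and the lowest value in GSK126 replicate 3. With the reads of the 5 copies added, Rpl10a stood at -0.24 (SE 0.07, edgeR adjusted p = 0.0745), and the call ended. That value was -0.16 without GSK126 replicate 3 (edgeR adjusted p = 0.064). It also ended without DMSO replicate 1 (adjusted p = 0.064) or DMSO replicate 2 (0.0592), by edgeR.

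Rpl8 (chr15:76904078-76906314), whose reads are hardly shared, had 866, 889 and 809 CPM with GSK126 and 977, 970 and 987 CPM with DMSO. The means were 855 ± 41.5 and 978 ± 8.17 CPM (SD, n = 3 each), the groups did not overlap, and the log2 fold change was -0.19 (SE 0.04, edgeR adjusted p = 0.0347). Only 7.86% of its 50-base words occurred elsewhere. Its value was -0.16 without GSK126 replicate 3 (edgeR adjusted p = 0.0299) and -0.20 with copies added (0.0343). The adjusted p was 0.0866 without GSK126 replicate 1 and 0.106, 0.104 and 0.101 without DMSO replicates 1, 2 and 3, so those 4 omissions ended the call.

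The P stalk recruits the GTPase factors of elongation. Rplp0, its scaffold, had 1150, 1160 and 1010 CPM with GSK126 and 1110, 1110 and 1160 CPM with DMSO, a log2 fold change of -0.03 (SE 0.06). Rplp1 had 696, 612 and 512 CPM with GSK126 and 598, 654 and 642 CPM with DMSO (-0.06, SE 0.10). Rplp2, the other acidic protein, had 222, 206 and 142 CPM with GSK126 and 208, 210 and 223 CPM with DMSO (-0.17, SE 0.15). In all 3 the groups overlapped, GSK126 replicate 3 was the lowest of the 6 libraries, and without it the values were 0.04, 0.05 and 0.00. Rpl12, at the base of the stalk, had values of 21.4, 23.7 and 20.7 CPM with GSK126 and 26.5, 30.2 and 24.2 CPM with DMSO (-0.30, SE 0.10, edgeR adjusted p = 0.117). Of the 4 stalk genes 0 were called. Their median was -0.11 with all libraries, with 4 of 4 below 0, and 0.02 without GSK126 replicate 3, with 1 of 4 below 0.

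Rpl5 and Rpl11 join 5S ribosomal RNA in a particle that can bind MDM2, the ubiquitin ligase of p53, when assembly fails. Rpl5 had 42.5, 44.4 and 39.5 CPM with GSK126 and 49.6, 46.0 and 49.7 CPM with DMSO, groups that did not overlap (log2 fold change -0.20, SE 0.07, edgeR adjusted p = 0.119). Its 9 copies held 59518 reads, 15.6 times its own 3821, and it shares 953 exonic bases with Fam69a, which had 451 reads. Adding them gave 718, 724 and 677 CPM with GSK126 and 798, 779 and 806 CPM with DMSO, and Rpl5 then passed the test at -0.17 (SE 0.04, edgeR adjusted p = 0.0423). Rpl11 had 6.35, 4.96 and 5.72 CPM with GSK126 and 6.39, 7.04 and 5.41 CPM with DMSO, with overlapping groups (-0.15, SE 0.16). With copies its groups came apart, at 335, 336 and 283 CPM with GSK126 and 368, 365 and 369 CPM with DMSO (-0.21, SE 0.07, edgeR adjusted p = 0.0987), and the value was -0.13 without GSK126 replicate 3.

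Proteins that line or surround the exit tunnel had a median near that of all members. Of the 8 listed (Rpl4, Rpl17, Rpl19, Rpl23a, Rpl26, Rpl31, Rpl35 and Rpl39), 0 were called, 7 lay below 0 and the median was -0.20, against -0.18 for all members. These medians were -0.10 and -0.08 without GSK126 replicate 3. Rpl4 had 1150, 1150 and 1070 CPM with GSK126 and 1120, 1220 and 1230 CPM with DMSO (-0.08, SE 0.05), and -0.05 without GSK126 replicate 3. Rpl23a had 2.58, 2.04 and 3.0 CPM with GSK126 and 3.16, 3.91 and 2.45 CPM with DMSO, groups that overlapped (-0.32, SE 0.24). It shares 506 exonic bases with Tlcd1, which held 312 reads, so a part of its 241 own reads is uncertain.

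Rpl17 lay on opposite sides of 0 with and without its copies. On own reads it had 9.70, 8.57 and 9.97 CPM with GSK126 and 8.31, 8.39 and 7.93 CPM with DMSO, the highest log2 fold change of the large subunit (0.20, SE 0.11, edgeR adjusted p = 0.285), and its groups did not overlap. Those values rest on 746 reads, 3.19% of the reads of Rpl17 and its 55 copies together. With the copies the values were 268, 252 and 251 CPM with GSK126 and 293, 295 and 306 CPM with DMSO, below 0 at -0.21 (SE 0.04, edgeR adjusted p = 0.025). The direction turned, and it stayed so without GSK126 replicate 3 (-0.20, edgeR adjusted p = 0.0432).

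Rpl27, the lowest value of the large subunit, had 28.3, 33.2 and 24.0 CPM with GSK126 and 36.7, 38.8 and 37.9 CPM with DMSO, groups that did not overlap (-0.41, SE 0.12, edgeR adjusted p = 0.0708). It was -0.30 without GSK126 replicate 3. With copies it was -0.28 (SE 0.16), and -0.09 (SE 0.04) when that library was left out as well. Rpl32, one of the most abundant members, had 468, 454 and 337 CPM with GSK126 and 512, 490 and 505 CPM with DMSO (-0.26, SE 0.12, edgeR adjusted p = 0.199), and -0.12 without GSK126 replicate 3. Rpl32 shares 53 exonic bases with Cand2.

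In the small subunit the proteins at the mRNA entry and exit (Rps2, Rps3, Rps3a1, Rps14, Rps26, Rps28 and Rpsa) had 0 calls among 7, 5 values below 0 and a median of -0.13, which was -0.06 without GSK126 replicate 3. Rpsa, also known as the laminin receptor precursor, had the highest value of the subunit. It stood at 1710, 1680 and 1740 CPM with GSK126 and 1600, 1580 and 1660 CPM with DMSO, groups that did not overlap (0.08, SE 0.04, edgeR adjusted p = 0.2). With its 19 copies added the groups touched, at 2110, 2080 and 2070 CPM with GSK126 and 2000, 1990 and 2070 CPM with DMSO (0.05, SE 0.04). Rps14, at the platform, had 381, 395 and 348 CPM with GSK126 and 435, 413 and 458 CPM with DMSO, without overlap (-0.22, SE 0.06, edgeR adjusted p = 0.0661).

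Rps6 had 12.3, 13.2 and 12.3 CPM with GSK126 and 12.9, 15.2 and 12.6 CPM with DMSO (-0.10, SE 0.10), and the groups overlapped. With copies they did not, at 830, 850 and 752 CPM with GSK126 and 890, 877 and 915 CPM with DMSO (-0.14, SE 0.05, edgeR adjusted p = 0.135), and the value was -0.09 without GSK126 replicate 3. Rps27a, made as a fusion with ubiquitin, had 43.8, 41.3 and 42.9 CPM with GSK126 and 47.4, 47.7 and 50.6 CPM with DMSO, groups apart (-0.19, SE 0.06, edgeR adjusted p = 0.104). With copies its groups overlapped and the value was -0.16 (SE 0.09), or -0.07 without GSK126 replicate 3. Rps15, a head protein, had 656, 649 and 469 CPM with GSK126 and 638, 632 and 671 CPM with DMSO (-0.13, SE 0.12). Its value without the low GSK126 replicate 3 was 0.01.

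Rps29 had the lowest log2 fold change of all members, but on few reads, at 22, 17 and 12 with GSK126 and 30, 25 and 26 with DMSO (-0.74, SE 0.27, edgeR adjusted p = 0.126). With its copies it had 63.2, 63.7 and 35.1 CPM with GSK126 and 57.6, 70.9 and 65.1 CPM with DMSO, overlapping groups and a value of -0.26 (SE 0.22). Without GSK126 replicate 3 that was -0.03. Rps13, Rps23 and Rps27, each below 400 own reads, had values of -0.09, 0.00 and 0.05 with SE of 0.33, 0.14 and 0.24, and their groups overlapped. The value of Rps13 was -0.40 without GSK126 replicate 3. With copies the values of the 3 genes were -0.23, -0.19 and -0.29, and 0 of the 3 passed the test. When GSK126 replicate 3 was left out as well, these were -0.12, -0.05 and -0.06.

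Of the 18 listed genes mutated in Diamond-Blackfan anaemia, a human failure of red cell production, 0 were called, 17 lay below 0 and the median was -0.19, close to -0.18 for all members. The medians were -0.12 and -0.08 without GSK126 replicate 3. Rps19, the gene most often affected in patients, had 149, 140 and 104 CPM with GSK126 and 145, 147 and 153 CPM with DMSO, with overlapping groups (-0.18, SE 0.12). It was -0.04 without GSK126 replicate 3.

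Paralogs that can replace a standard protein were tested for 3 genes, and 0 passed. Rpl22l1, the paralog of Rpl22, had 15.4, 13.7 and 10.2 CPM with GSK126 and 15.8, 16.9 and 15.9 CPM with DMSO, groups that did not overlap (-0.30, SE 0.15, edgeR adjusted p = 0.237). It was -0.15 without GSK126 replicate 3, the lowest of the 6 libraries. Rpl7l1, a paralog of Rpl7 with a role in ribosome assembly, had 130, 128 and 118 CPM with GSK126 and 138, 137 and 146 CPM with DMSO, also apart (-0.16, SE 0.06, edgeR adjusted p = 0.11). Rps27l, a paralog of Rps27 that p53 induces in human cells, had 125, 124 and 80.1 CPM with GSK126 and 140, 142 and 107 CPM with DMSO, and overlapped (-0.24, SE 0.18). Here too GSK126 replicate 3 was the lowest, and the value without it was -0.06. On own reads per kilobase Rps27l stood at 240 and Rps27 at 5.32, but Rps27 reached 454 with its copies.

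Adding the reads of copies left the picture of small, mostly negative values, with less spread between genes but a lower GSK126 replicate 3. The median deviation of that library from its group was -0.33 with copies, against -0.22 on own reads, and -0.47 against -0.31 in the small subunit. Relative to the DMSO mean its median was -0.40 with copies, where GSK126 replicates 1 and 2 had -0.07 and -0.08. The log2 fold change was below 0 in 78 of 80 members, where 49.9% of all genes tested in that way were, the median was -0.18, and the standard deviation over members was 0.10, against 0.14 on own reads. Calls were 3, all lower and all of the large subunit (Rpl17, Rpl8 and Rpl5), where 5.44% of all genes were called lower and 5.94% higher. GSK126 libraries lay below all DMSO libraries in 40 members, 26 of the large and 14 of the small subunit, against a background of 16.9%, and above them in 1, Rps2 (17.6%). Direction differed from that on own reads in 5 members, namely Rpl10, Rpl17, Rpl29, Rps23 and Rps27. Without GSK126 replicate 3 as well, 68 of 80 lay below 0, the median was -0.08 and Rpl8, Rpl14, Rpl17 and Rpl5 were called lower and 0 members higher, where 4.52% and 4.7% of all genes were. GSK126 replicates 1 and 2 then lay below all DMSO libraries in 40 members, where 22.2% of all genes did. Of the copies themselves 209 could be tested in the fit without added reads. There 179 had a log2 fold change below 0, where 50.1% of all tested genes did, and the median was -0.18. Called lower were 2, Rpl17-ps3 and the Rpl5 copy Gm15500, and 0 were called higher, where 5.18% and 5.87% of all tested genes were. These values include GSK126 replicate 3, in which the copies took 1.29% of the reads, against 1.63% and 1.62% in GSK126 replicates 1 and 2.

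**Figure D5:**
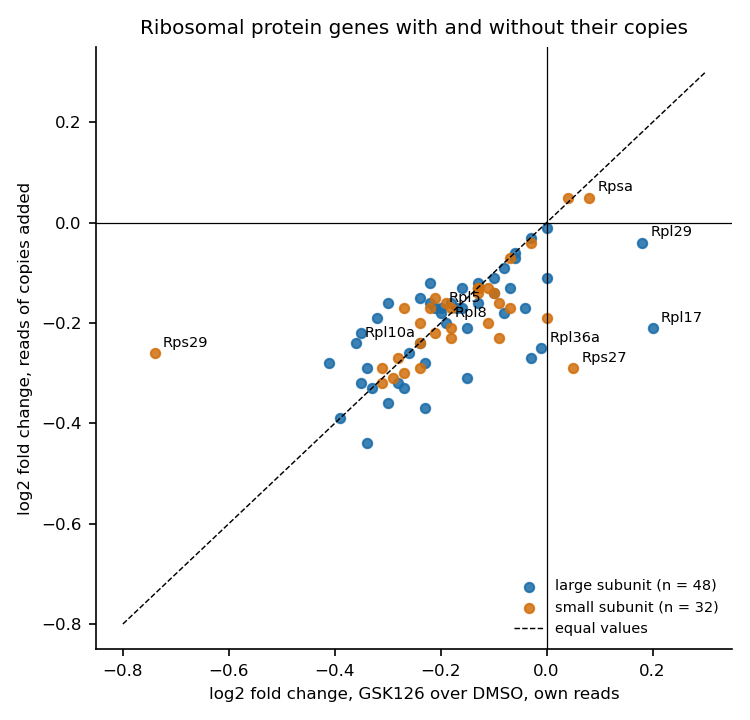
The log2 fold change of each ribosomal protein gene, GSK126 over DMSO, with the reads of its copies added (vertical axis) against that on its own reads (horizontal axis), with the dashed line at equal values. With copies, 78 of 80 points lie below 0, and Rpl17 lies at 0.20 on own reads and at -0.21 with them.

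The start of the message was examined because the TOP motif lies there in mRNAs that carry it. RefSeq windows (250 bases before to 50 after an annotated start, GRCm38.p6) were found for 60 members, 71 windows in all. A C followed by at least 4 more pyrimidines exactly at the annotated start was present in 13 of 71 windows (18.3%), against 296 of 12282 windows of tested genes (2.41%). These windows belonged to 13 of the 60 members. Starts were used as annotated and were not checked in these libraries. Below, 30 bases on each side of the start are shown for 3 of them on the coding strand, with the pyrimidine run from the start in capitals, to show how the motif looks in members chosen after their values were seen.
Rpl14: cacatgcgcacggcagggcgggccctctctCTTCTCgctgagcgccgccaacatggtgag
Rpl35: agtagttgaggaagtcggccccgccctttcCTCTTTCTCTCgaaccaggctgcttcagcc
Rpl15: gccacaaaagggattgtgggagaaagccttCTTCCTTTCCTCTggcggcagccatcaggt
They lie at chr9:120571487-120571546 (plus strand), chr2:39005102-39005161 (minus strand) and chr14:18270957-18271016 (minus strand).

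Rpl14 had 90.2, 79.8 and 77.9 CPM with GSK126 and 95.5, 97.7 and 106 CPM with DMSO, without overlap (-0.27, SE 0.07, edgeR adjusted p = 0.0588). Rpl35, at the tunnel exit, had 150, 169 and 117 CPM with GSK126 and 174, 193 and 181 CPM with DMSO, also without overlap (-0.33, SE 0.13, edgeR adjusted p = 0.142), and -0.19 without GSK126 replicate 3. Rpl15 had 59.3, 61.2 and 63.4 CPM with GSK126 and 62.6, 62.1 and 64.5 CPM with DMSO, with overlap (-0.04, SE 0.06), and -0.07 without GSK126 replicate 3. Of these 3 genes 0 passed the test, and no difference between them was tested. Elsewhere in the windows, on both strands, CCGGAAG, the core of ETS-factor sites, was found in 36.6% of member windows and 18% of all, AAGATGGC, a YY1 motif, in 11.3% and 4.5%, TATAAA in 9.86% and 6.76%, and CACGTG, the E-box bound by MYC, in 11.3% and 10%. These matches describe letters in a window and say nothing of binding.

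Genes of the ribosome assembly pathway were taken from lists. These and the lists after them were chosen with earlier results of these data known. Of 43 ribosome biogenesis factors 20 were called lower and 0 higher, with a median of -0.25, where 5.18% of all tested genes were called lower. Without GSK126 replicate 3, 13 were called lower and the median was -0.24. Nop2, which methylates 28S ribosomal RNA, had 157, 156 and 151 CPM with GSK126 and 219, 220 and 217 CPM with DMSO (-0.50, SE 0.04, edgeR adjusted p = 0.000939). Dkc1, the pseudouridine synthase of box H/ACA particles, had 71.2, 74.7 and 76.6 CPM with GSK126 and 111, 114 and 106 CPM with DMSO (-0.57, SE 0.05, edgeR adjusted p = 0.00152). Rrp9, a U3 snoRNP protein, fell by 0.62 on the log2 scale (SE 0.08). In none of the 3 did the groups overlap. The count of lower factors lay between 9 (without DMSO replicate 1) and 14 (without DMSO replicate 3) with a library left out.

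Of 14 RNA polymerase I genes 4 were called lower and 0 higher (median -0.22). Over all tested genes, 5.18% were called lower and 5.87% higher. Without GSK126 replicate 3 the polymerase genes had a median of -0.21 and 2 were called lower. Polr1b, the second largest subunit of the polymerase, had 53.0, 52.3 and 54.0 CPM with GSK126 and 70.9, 71.6 and 73.4 CPM with DMSO (-0.44, SE 0.05, edgeR adjusted p = 0.00395). Ubtf, the factor that marks active ribosomal DNA, and Taf1d also fell, by 0.29 (SE 0.06) and 0.20 (SE 0.05) on the log2 scale. Among 7 dedicated chaperones and escorts of ribosomal proteins 4 were lower and 0 higher (median -0.33), against the same background. Their median was -0.31, with 3 lower, when GSK126 replicate 3 was left out. Ltv1, a small-subunit assembly factor known from yeast, fell by 0.44 (SE 0.05), the Rps26 chaperone Tsr2 by 0.40 (SE 0.09) and Heatr3, an importer of Rpl5, by 0.35 (SE 0.07). With a library left out, between 1 and 2 polymerase genes and between 1 and 3 chaperones were called. The call of Taf1d ended without any of the 6 libraries (edgeR adjusted p up to 0.139), that of Tsr2 without 5 of them (up to 0.123), of Heatr3 without 4 (up to 0.102) and of Ubtf without 3 (up to 0.0754).

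Further lists covered translation control and other ribosomal proteins, and their counts stand against 5.18% of all tested genes called lower and 5.87% higher. Of 16 mRNAs of translation factors and allies with a TOP start, 1 was lower and 0 higher (median -0.10), namely the histone chaperone gene Nap1l1 at -0.22 (SE 0.04). Their median was -0.05, with 2 lower, when GSK126 replicate 3 was left out. In the mTORC1 and TOP control list 2 of 12 were lower and 1 higher (median 0.01). Larp1, whose protein binds the TOP motif, had 336, 334 and 350 CPM with GSK126 and 409, 412 and 405 CPM with DMSO (-0.27, SE 0.04, edgeR adjusted p = 0.00743). Eif4ebp1, an inhibitor of cap-dependent translation, fell by 0.50 (SE 0.08), and Tsc1, an inhibitor of mTORC1, rose by 0.29 (SE 0.06). Among 8 snoRNA host RNAs, several of which are TOP messages, 1 was lower and 0 higher (median -0.36), Zfas1 at -0.49 (SE 0.11), and 0 passed without GSK126 replicate 3. The 77 mitochondrial ribosomal proteins, parts of a separate ribosome, had 6 lower and 0 higher (median -0.16), a count of calls near that background. Like the cytosolic members they lay mostly below 0, in 63 of 77 genes, against 50.1% of all tested genes. Without GSK126 replicate 3 it was 54 of 77, and the median was -0.11, against -0.08 for the cytosolic members. Among the 6 lower were Mrpl2 at -0.54 (SE 0.08), Mrps18b at -0.40 (SE 0.09) and Mrps7 at -0.26 (SE 0.06). With a library left out, between 1 and 3 of the mitochondrial genes were called. The call of Mrps18b ended without any of the 6 libraries (edgeR adjusted p up to 0.0942), those of Zfas1, Mrps7 and Tsc1 without 5 each (up to 0.108, 0.121 and 0.106) and that of Nap1l1 without DMSO replicate 1 or 2 (0.0665 and 0.0609). Of 4 cytosolic ribosomal proteins with other names 0 were called (median -0.15). Their median was -0.01 without GSK126 replicate 3, and 1 was then called higher. The most abundant of them, Rack1, a signalling scaffold on the small subunit, had 774, 756 and 550 CPM with GSK126 and 782, 809 and 846 CPM with DMSO (-0.23, SE 0.12), and -0.09 without GSK126 replicate 3.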

How the data were processed

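CASAVA 1.8, HISAT2 and the builds GRCm38.p4 and mm10 are named by the submitters' processing notes. How reads were counted, how strand and several placements were handled and which annotation served was not given in the sources used here. The authors deposited whole-number read counts per gene for each sample and an FPKM table. The deposited FPKM values followed the counts in fixed proportion (largest ratio 1.000048 between libraries over 12035 genes), and their gene length was the sum of all distinct annotated exons for 96.3% of 13196 genes (within 0.1%), a median of 3.84 times a member's transcript. Levels between genes therefore use reads per kilobase of 1 GENCODE M21 transcript per gene (the shortest principal one). Counts were fitted in edgeR 4.0.16 (R 4.3.3) with filterByExpr, TMM and the quasi-likelihood test on all 13601 genes passing the filter, with Benjamini-Hochberg adjustment and a threshold of 0.05; CPM uses TMM-scaled library sizes. Alternatives used DESeq2 1.42.0, limma 3.58.1 on log2(FPKM + 1) for genes of mean FPKM of at least 1, other scalings, a replicate block, omission of each library, and added copy reads.

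Copies were genes of a pseudogene biotype, of a name ending in -ps and a number, or retrogenes, assigned with BLAST+ 2.17.0 to the member of the best hit; of 232 named after a member, 231 went to that gene. The identity limit was raised to 90% after the data were seen. Between replicates, a chi-square over genes exceeded its degrees of freedom 7.51-fold to 14.2-fold, above counting noise. The test was tried on simulated counts. The members, lists and alternatives were chosen with earlier results of these data known. Genes named were the paralogs, Rplp0, Rplp1, Rplp2, Rpl5, Rpl11, Rpsa, Rps6 and Rps27a, called members, the 3 most abundant per length and the highest and lowest fold change of each subunit, the 5 with the most copy reads relative to their own, and up to 3 called genes (or the most abundant) per other list. Rpl12, Rpl14, Rpl15, Rpl35, Rpl4, Rps19, Rps2, Rps20 and Rpl29 were named after their values were seen. The values of 1 member, which is in the counts, are not reported here. Member genes share exons with another gene of at least 10% as many reads in Rpl12, Rpl15, Rpl18, Rpl19, Rpl23a, Rpl28, Rpl32, Rpl35, Rpl5, Rps18 and Rps25.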

Additional observations from a re-analysis of the deposited data

How the results depend on the processing

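Calls among the members were few and moved with most settings. With own reads the count was 2 under DESeq2 size factors in edgeR and under TMM computed without the members, 4 with DESeq2, 1 with no filter on low counts, 1 with limma on log2(FPKM + 1), and between 0 and 3 when a library was left out; the same values hold for the large subunit, and the small subunit had 0 throughout. With copies added and GSK126 replicate 3 left out, a setting chosen after seeing the data, it was 4, all of the large subunit. Rpl10a passed in 9 of 14 alternatives and Rpl8 in 7. Over all genes, 899 were called with no filter and between 529 and 1243 with a library left out, against 1503; over the other lists, 19 with no filter and between 15 and 26 with a library left out. The median log2 fold change of the members stayed below 0 in each setting run, between -0.23 and -0.08 with a library left out, -0.24 to -0.12 for the large and -0.22 to -0.06 for the small subunit; with copies added and GSK126 replicate 3 left out it was -0.10 for the large subunit. The difference in read share was -0.322 percentage points with copies added, and between -0.193 and -0.0463 with a library left out.

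The replicate numbers are shared between the groups. Deviations of same-numbered libraries from their group means had correlations of 0.0149, 0.0145 and -0.0611 over genes. With 3 libraries per group, these values cannot tell whether same-numbered libraries were handled together, and the labels do not say. With a replicate block, 408 genes, 0 members, 0 of the large subunit and 9 genes of the other lists were called.

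Direction turned in single genes near 0. Without GSK126 replicate 3, Rplp0, Rplp1, Rplp2 and Rps15 stood at 0.04, 0.05, 0.00 and 0.01, both with and without copies, and Rps27 at -0.01 (-0.06 with copies). With copies added to all 6 libraries, Rpl17, Rps23 and Rps27 stood at -0.21, -0.19 and -0.29, and without GSK126 replicate 3 as well Rpl17 and Rps23 at -0.20 and -0.05. Rps23 was at -0.00 under TMM without the members and with no filter, and between -0.06 and 0.05 with a library left out, Rps27 between -0.12 and 0.19, Rps13 between -0.40 and 0.13, Rplp0 between -0.06 and 0.04, Rplp1 between -0.17 and 0.05, Rplp2 between -0.29 and 0.00 and Rps15 between -0.21 and 0.01. The cause of these changes was not tested. The members' median SE of the log2 fold change was 0.11 per gene with all libraries and 0.07 without GSK126 replicate 3, and 14 members had below 1000 reads.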

Other observations

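Rpl29, a heparin-binding protein of the large subunit, varied between libraries in a way that did not follow the treatment. It had 139, 92.5 and 134 CPM with GSK126 and 95.5, 133 and 93.5 CPM with DMSO, so that GSK126 replicates 1 and 3 and DMSO replicate 2 were high and the other 3 low. Its heaviest copy, Gm13841, is 483 bases long and 99.38% identical over the aligned bases. Gm13841 had 1504, 1655 and 835 reads with GSK126 and 1318, 1590 and 1586 with DMSO, a different order. With all 59 copies added, Rpl29 stood at 264, 226 and 210 CPM with GSK126 and 215, 267 and 234 CPM with DMSO.

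Gm15500, annotated as a copy of Rpl5, had 8782, 8959 and 8494 reads with GSK126 and 9177, 9352 and 9240 with DMSO (log2 fold change -0.16, SE 0.04, edgeR adjusted p = 0.0344). Rpl5 itself, at -0.20 on a fraction of those reads, did not pass.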
